A study of Mus musculus with 3 samples.

Results

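The hedgehog group held 8 genes: the ligand gene Shh, the receptor gene Ptch1, the co-receptor gene Gas1, the transcription factor genes Gli1, Gli2 and Gli3, and the target genes Foxf1 and Foxf2. They were chosen by name, and a transcript was taken where its RefSeq identifier mapped to one of these symbols. All 8 had exactly 1 transcript, among 10761 named genes in the table. The samples were whole lungs of mice with a C57BL/6J/mixed background, in 1 wild-type library (WT) and 2 libraries of Lin28a and Lin28b double knockouts (DKO 1 and DKO 2). In the knockouts, tamoxifen induced the loss of exon 2, flanked by loxP sites, through a creERT recombinase driven by NKX2.1, which the series describes as specific to epithelium. By design, cells outside the epithelium kept both genes. The labels attach 1 tamoxifen protocol to all 3 libraries and do not say whether the WT lung carried the recombinase or was exposed to the drug. They give no age or sex. The titles give each library a lung number of its own, without saying that the lungs came from separate animals. The p-values thus rest on the spread between the DKO libraries, over all tested transcripts, and may not cover spread between animals.

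Sonic hedgehog is secreted by the epithelium of the developing lung and acts on the mesenchyme around it. Its receptor PTCH1 holds the membrane protein Smoothened inactive, and binding of the ligand, helped by co-receptors such as GAS1, lifts that block. The GLI transcription factors then switch on targets that include Gli1 and Ptch1 themselves, so that both are widely used as readouts of the pathway. GLI2 acts mainly as an activator and GLI3 mainly as a repressor. FOXF1 and FOXF2 are forkhead factors of the lung mesenchyme whose expression depends on hedgehog signalling.

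Facts of the whole data set bear on each value below. Expression was given as RPKM, corrected for the length of the transcript and the size of the library. Of 16383 transcripts, 68.0% were at 0 throughout. The steps between low values put the depth near 48700000 reads in WT, with 30700000 in DKO 1 and 34200000 in DKO 2. Gapdh, a gene that nearly all cells use, had at most 0.185 RPKM in any library, so a low value can be a failed estimate. Lin28b, 1 of the deleted genes, was at 0.449 RPKM in WT against 0.187 and 0.590 in the libraries labelled DKO 1 and DKO 2, so it was not lower in the latter. The table does not separate exon 2 from the others. No transcript in the table mapped to Lin28a, so it was not analysed here. Ddx3y, Eif2s3y, Kdm5d and Uty, 4 Y-linked genes, were at 0 in WT and above 0 in both DKO libraries, so sex and genotype cannot be told apart. Of 13 epithelial marker genes with a transcript, 2 (Nkx2-1 and Sftpb) were at 0 throughout, as were 2 of 14 mesenchymal markers (Pdgfrb and Tbx4).

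Shh, Gli1, Gli2 and Gli3 were lower than WT in both DKO libraries, Ptch1, Gas1 and Foxf2 were higher in both, and Foxf1 lay on either side. No member passed the test of DKO against WT. The test was limma on log2(RPKM + 1) with Benjamini-Hochberg adjustment, over the 2066 transcripts whose mean reached 1 RPKM. It called 2 transcripts, or 0.0968%. The 6 members above that level were Shh, Gas1, Gli2, Gli3, Foxf1 and Foxf2. Of them 0 passed (limma adjusted p = 0.999 for each), and 0 had an unadjusted p under 0.05, against 3.19% of all tested transcripts. Ptch1 and Gli1 lay under the level. In the fit without it, in which 0 of 5245 transcripts were called (0.00%) and 260 had an unadjusted p under 0.05 (4.96%), both had a limma adjusted p of 0.922. The residual spread in these fits came from the DKO libraries alone, with the WT library assumed to vary like them. For each transcript, limma drew that spread toward a trend over all tested transcripts. In the fit over 2066 transcripts the trend weighed as 11.2 degrees of freedom against 1 residual. In that fit the SE of a gene thus rests mostly on other transcripts, not on its own gap between the DKO libraries. The fit without the level, used for Ptch1 and Gli1, weighed its trend separately, so their SEs do not compare directly with the others.

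**Figure D1:**
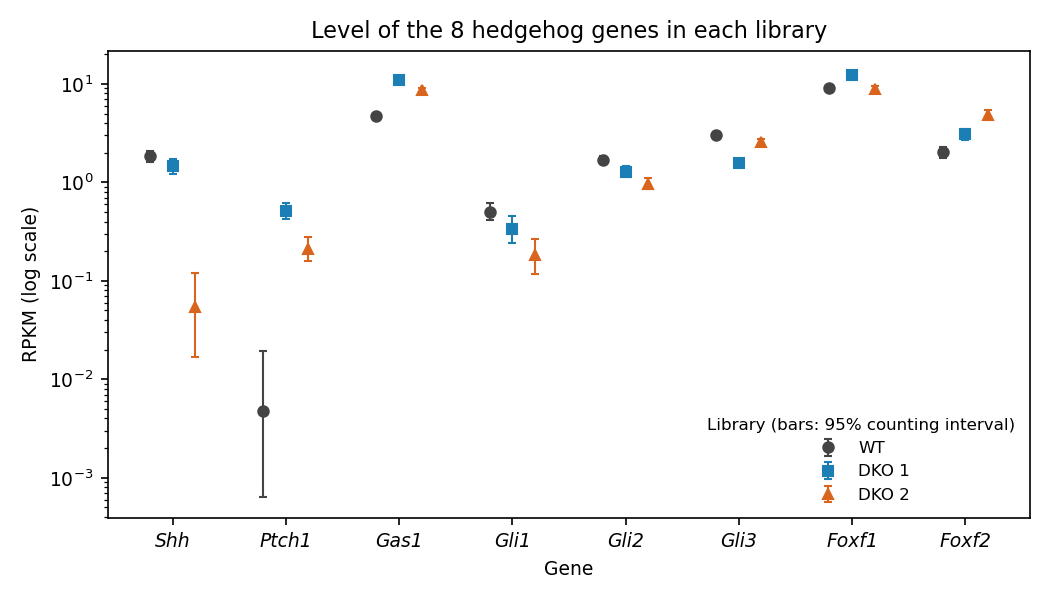
RPKM of the 8 genes on a log scale in WT, DKO 1 and DKO 2, with 95% Poisson intervals that cover counting error only. Shh in DKO 2 (0.0548 RPKM) and Ptch1 in WT (0.00477 RPKM) lie far below the values of the same gene in the other libraries.

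The ligand gene came first in the comparison. Shh (NM_009170, chromosome 5, 28456840 to 28467101, 3 exons, minus strand) was at 1.85 RPKM in WT against 1.45 and 0.0548 in DKO 1 and DKO 2. Approximate read numbers were 256, 127 and 5. WT and DKO 1 lay close together, and DKO 2 stood alone at a low level. Relative to WT, DKO 1 had a ratio of 0.787 (0.631 to 0.977, exact binomial interval at the 95% level). The same ratio was 0.0297 in DKO 2 (0.00897 to 0.0659). DKO 2 was also below DKO 1, at a ratio of 0.0377 (0.0113 to 0.0848). The mean log2 difference from WT was −0.82 (SE 0.88, 95% interval −2.74 to 1.09). The gap between the DKO libraries was 1.22 on that scale, and 18.5% of tested transcripts had a gap at least as large. Shh reached the level for testing through WT and DKO 1.

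Markers of the epithelium, the source of Shh, differed among themselves. Of the 13 epithelial genes with a transcript, 2 were at 0 throughout and so could lie on neither side. Of the others, 6 were below WT in both DKO libraries and 1 (Krt19, also a mesothelial gene) was above. Of all transcripts above 0, 30.6% were below in both and 24.3% above in both. The 13 markers summed to 492, 114 and 67.2 RPKM in WT, DKO 1 and DKO 2. Without Sftpc, the surfactant gene that dominates the sum, it was 123, 107 and 67.1 RPKM. Without Id2 as well, which is not specific to epithelium, it was 46.1, 23.4 and 37.9 RPKM, so that DKO 2 no longer was the lowest library. That sum still held Krt19 (3.08, 6.17 and 9.11 RPKM), and in DKO 2 most of it came from Epcam, Krt18 and Krt19. Sftpc itself was at 369, 7.55 and 0.0364 RPKM, and was thus far below WT in DKO 1 too, where Shh was not. Epcam, a general epithelial gene, was at 17.4, 6.75 and 10.6 RPKM, and the keratin gene Krt18 at 12.2, 4.10 and 14.7. Sftpc, Id2, Sox9, Sox2, Foxa1, Irx2 and Cdh1 had their lowest value in DKO 2, as Shh did, while Epcam, Krt18 and Krt19 did not. In whole lung, fewer epithelial cells and less Shh RNA per cell cannot be told apart. The part of epithelial content in the Shh values was not tested. In the annotation, 15.7% of the exonic bases of Shh overlap the opposite-strand gene 9530036O11Rik and 12.7% overlap Gm26894. The sources used here do not say whether reads were assigned by strand.

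Ptch1, which encodes the receptor, went the other way from its ligand (NM_008957, chromosome 13, 63508328 to 63573460, 23 exons, minus strand). Its level of 0.00477 RPKM in WT rested on about 2 reads, while 0.515 RPKM in DKO 1 rested on 122 and 0.211 in DKO 2 on 56. WT was nearly empty, while both DKO libraries held more reads at a low level. The ratio to WT was 108 in DKO 1 (26.2 to 808) and 44.1 in DKO 2 (10.6 to 338). DKO 2 was below DKO 1, at a ratio of 0.409 (0.295 to 0.571). On the log2(RPKM + 1) scale, which understates changes of low genes, the mean difference was 0.43 (SE 0.21, 95% interval −0.40 to 1.26). RefSeq lists 2 curated transcripts of Ptch1 and the table holds 1 of them, and it was the only member with more than 1. Whether the WT value is a failed estimate was not tested. Of all transcripts above 0, 24.3% were above WT in both DKO libraries.

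Gas1, the co-receptor gene, is intronless (NM_008086, chromosome 13, 60174405 to 60177535, minus strand). Its level was 4.74 RPKM in WT (about 683 reads), against 11.0 in DKO 1 (997 reads) and 8.58 in DKO 2 (868 reads). Both DKO libraries lay above WT and close to each other, with a mean of 9.77 RPKM ± 1.68 (SD, n = 2). The ratio to WT was 2.31 in DKO 1 (2.10 to 2.55) and 1.81 in DKO 2 (1.64 to 2.01). Its mean log2 difference was the largest above WT among the 6 tested members, at 0.90 (SE 0.67, 95% interval −0.55 to 2.35). DKO 1 and DKO 2 were 0.32 apart on this scale, and 71.6% of tested transcripts had a gap at least as large. A predicted gene on the opposite strand, Gm48488, overlaps 19.9% of the exonic bases of Gas1.

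The 3 GLI genes were each below WT in both DKO libraries, which held for 31.0% of the tested transcripts and, without the filter that Gli1 does not pass, for 30.6% of those above 0. Gli1, itself a target of the pathway (NM_010296, chromosome 10, 127329882 to 127341579, 13 exons, minus strand), was at 0.505 RPKM in WT, and at 0.338 and 0.184 in the DKO libraries in order. With about 100, 42 and 25 reads it was the GLI gene with the lowest level in every library. Its ratio to WT was 0.670 in DKO 1 (0.453 to 0.964) and 0.364 in DKO 2 (0.220 to 0.557), and the mean log2 difference was −0.26 (SE 0.20). The order of Gli1 over the libraries was the same as that of Shh, with DKO 2 lowest. Ptch1, the other readout of the pathway, was instead lowest in WT. Whether Gli1 follows Shh was not tested.

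Gli2, the main activator (NM_001081125, chromosome 1, 118834061 to 119054405, 14 exons, minus strand), was at 1.70 RPKM in WT, with 1.28 in DKO 1 and only 0.972 in DKO 2. DKO 2 was again the lowest library, and the ratios to WT were 0.756 (0.652 to 0.880) in DKO 1 and 0.573 (0.487 to 0.671) in DKO 2. The mean log2 difference was −0.35 (SE 0.77, 95% interval −2.02 to 1.33).

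Gli3, whose product is cut into a repressor when the ligand is absent (NM_008130, chromosome 13, 15463723 to 15730026, 15 exons, plus strand), was at 3.01 RPKM in WT, with 1.57 and 2.55 in DKO 1 and DKO 2. Here DKO 1 was the lowest library, unlike Gli1 and Gli2. The ratios were 0.523 (0.465 to 0.586) in DKO 1 and 0.845 (0.770 to 0.929) in DKO 2, with a mean log2 difference of −0.41 (SE 0.68, 95% interval −1.89 to 1.07). Gli3 had the highest RPKM of the 3 GLI genes in each library. Together the GLI genes reached 5.21 RPKM in WT against 3.20 and 3.70 in DKO 1 and DKO 2. Within a library, where a single scaling factor cancels, Gli1 stood to Gli3 at ratios of 0.168, 0.215 and 0.0721 in WT, DKO 1 and DKO 2. The ratio of Gli2 to Gli3 was 0.563, 0.815 and 0.382 in the same order. The balance of GLI genes in WT thus lay between those of the DKO libraries.

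**Figure D2:**
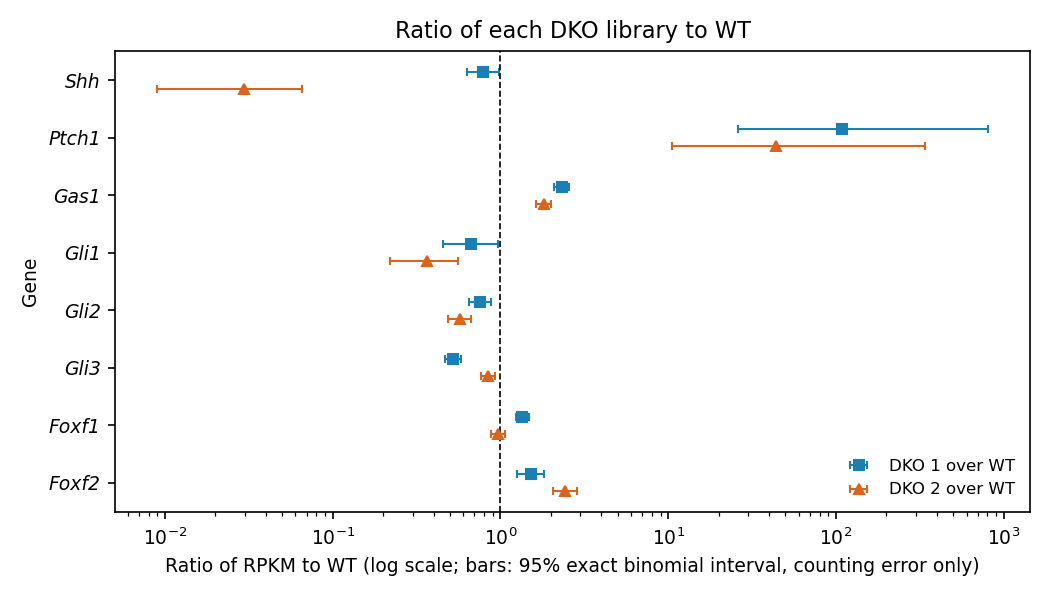
Ratio of RPKM in DKO 1 and in DKO 2 to WT for each gene on a log scale, with 95% exact binomial intervals for counting error. The dashed line marks a ratio of 1, and the interval for Foxf1 in DKO 2 (0.885 to 1.07) is the only 1 of the 16 that holds it.

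Neither mesenchymal target gene was below WT in both DKO libraries, where Shh was. Whether these genes follow Shh was not tested. Foxf1 (NM_010426, chromosome 8, 121084386 to 121088154, 2 exons, plus strand) was at 9.15 RPKM in WT, with 12.4 and 8.90 in DKO 1 and DKO 2, from about 1076, 919 and 734 reads. DKO 2, where Shh was nearly absent, had a Foxf1 level close to that of WT, at a ratio of 0.973 (0.885 to 1.07). In DKO 1 the same ratio was 1.35 (1.24 to 1.48). The mean log2 difference was 0.18 (SE 0.69, 95% interval −1.32 to 1.68), and it turned to −0.024 with rescaling to TPM and to −0.036 without DKO 1.

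Foxf2, the close relative of Foxf1 (NM_010225, chromosome 13, 31625816 to 31631406, 2 exons, plus strand), was at 2.02 RPKM in WT, with 3.07 and 4.88 in DKO 1 and DKO 2. Both DKO libraries lay above WT and DKO 2 was the highest. The ratios were 1.52 (1.26 to 1.83) in DKO 1 and 2.41 (2.05 to 2.85) in DKO 2. The mean log2 difference was 0.70 (SE 0.66, 95% interval −0.74 to 2.13). Within a library, Foxf2 stood to Foxf1 at ratios of 0.221, 0.248 and 0.549 in WT, DKO 1 and DKO 2.

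Markers of the mesenchyme, in which the FOXF, GLI and Gas1 transcripts are chiefly made, were also measured. Of 14 marker genes with a transcript, 2 were at 0 throughout and so could lie on neither side. Of the others, 7 were above WT in both DKO libraries and 0 were below in both. Of all transcripts above 0, 24.3% were above in both and 30.6% below in both. The 14 markers summed to 121, 181 and 125 RPKM in WT, DKO 1 and DKO 2. The part of mesenchymal content in the levels of Gas1 and Foxf2 was not tested. Markers of liver summed to 7.55, 11.4 and 183 RPKM, those of heart to 21.4, 13.7 and 81.8 and those of leukocytes to 41.0, 380 and 201 in WT, DKO 1 and DKO 2. Erythroid markers summed to 20191, 28695 and 102701 RPKM, and 5 of the 7 were above WT in both DKO libraries, among them Klf1, an erythroid transcription factor, at 0.0803, 0.340 and 7.18 RPKM. DKO 2, the library with little Shh, thus also held the highest sums of erythroid, liver and heart markers, and the part of other tissues in its values was not tested.

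Counting error alone does not limit most of these ratios. For the ratio to WT, intervals lay above 1 in both DKO libraries for Ptch1, Gas1 and Foxf2, and for 24.7% of the 2049 tested transcripts with an annotated length. They lay below 1 in both for Shh, Gli1, Gli2 and Gli3, and for 24.8% of those transcripts. In DKO 1 the interval left out 1 for 82.6% of them and in DKO 2 for 87.8%, so such an interval was the rule in this table. By the rule of size, a change of at least 2-fold on the log2(RPKM + 1) scale in both DKO libraries with these closer to each other than to WT, 0 of the 6 tested members passed, against 4.70% of all tested transcripts. The median log2 difference of these 6 was −0.08 (0.092 in DKO 1 and −0.11 in DKO 2), beside −0.01 over all tested transcripts.

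**Figure D3:**
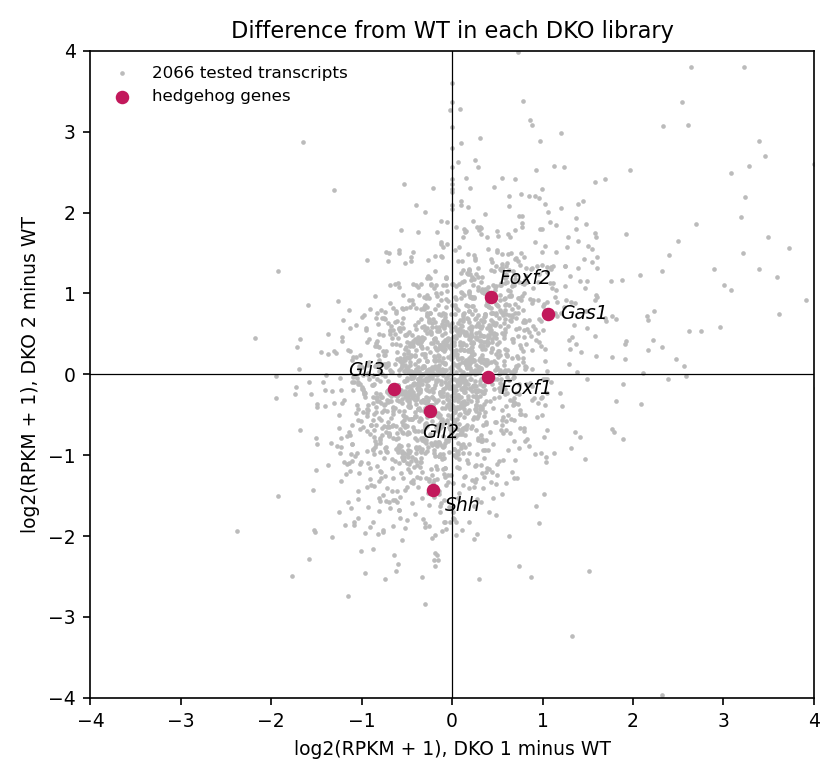
Difference from WT on the log2(RPKM + 1) scale in DKO 1 (horizontal) and DKO 2 (vertical) for the 2066 tested transcripts, with the 6 tested hedgehog genes in colour and 10 transcripts outside the axes. Gas1 and Foxf2 lie above 0 on both axes, Shh, Gli2 and Gli3 below 0 on both, and all 6 within the cloud of grey points.

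RPKM corrects for transcript length, so levels can be ordered within a library. In WT the order ran Foxf1, Gas1, Gli3, Foxf2, Shh, Gli2, Gli1 and Ptch1. Foxf2 and Shh, and Shh and Gli2, did not differ beyond their counting intervals there. DKO 1 had the order Foxf1, Gas1, Foxf2, Gli3, Shh, Gli2, Ptch1 and Gli1, and neighbours overlapped for Foxf1 with Gas1, Gli3 with Shh, Shh with Gli2 and Ptch1 with Gli1. In DKO 2 it was Foxf1, Gas1, Foxf2, Gli3, Gli2, Ptch1, Gli1 and Shh, with overlap for Foxf1 and Gas1, for Ptch1 and Gli1, and for Gli1 and Shh. Foxf1 was thus the highest member in every library, while Shh stood above Gli2, Gli1 and Ptch1 in WT and DKO 1 and last in DKO 2.

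Promoter windows from RefSeq (GRCm38.p6), which run from 250 bases before to 50 after the start site, were at hand for 5 of the 8 members. Those of Ptch1, Gas1 and Foxf2 are printed because these members were above WT in both DKO libraries, and capitals mark GC boxes (GGGCGG on either strand) and, in Gas1, a CCAAT box. The windows are Ptch1 at chr13:63565686-63565985 (minus strand), Gas1 at chr13:60177486-60177785 (minus strand) and Foxf2 at chr13:31625566-31625865 (plus strand). The window of Ptch1, like that of Gli2 (not printed), lies at a start site inside the gene, not at its outermost one.
Ptch1: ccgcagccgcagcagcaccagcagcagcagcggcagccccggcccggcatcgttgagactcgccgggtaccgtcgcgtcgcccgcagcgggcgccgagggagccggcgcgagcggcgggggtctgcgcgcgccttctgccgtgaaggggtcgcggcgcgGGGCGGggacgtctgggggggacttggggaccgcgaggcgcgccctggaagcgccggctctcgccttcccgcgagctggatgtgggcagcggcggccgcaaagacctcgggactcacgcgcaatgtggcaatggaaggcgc
Gas1: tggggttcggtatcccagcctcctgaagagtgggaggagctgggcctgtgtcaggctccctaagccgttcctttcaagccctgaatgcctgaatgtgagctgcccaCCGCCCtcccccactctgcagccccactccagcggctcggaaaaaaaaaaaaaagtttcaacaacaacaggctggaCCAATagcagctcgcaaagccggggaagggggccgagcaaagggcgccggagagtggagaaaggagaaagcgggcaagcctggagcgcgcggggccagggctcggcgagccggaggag
Foxf2: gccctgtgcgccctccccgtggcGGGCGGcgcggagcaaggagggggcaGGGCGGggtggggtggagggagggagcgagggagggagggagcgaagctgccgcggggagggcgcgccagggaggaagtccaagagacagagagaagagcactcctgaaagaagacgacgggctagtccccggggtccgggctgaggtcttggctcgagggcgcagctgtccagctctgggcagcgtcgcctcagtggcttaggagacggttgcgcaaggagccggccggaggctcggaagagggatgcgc
The GLI consensus GACCACCCA, on either strand, was in 0 of the 5 member windows and in 0.253% of 32851 promoter windows. Its core CCACCCA, which every such site also contains, was in 0 of the 5 and in 9.30% of all. A GC box was in all 5, Gli2 and Gli3 included, and in 35.7% of all windows. It lay 91 bases before the start site in Ptch1, 144 in Gas1, and 227 and 201 in Foxf2. A CCAAT box (CCAAT on either strand) stood 68 bases before the start site of Gas1 and in none of the other 4, against 37.4% of all windows. The windows were rich in G and C, at 76.3% in Ptch1, 62.3% in Gas1 and 71.3% in Foxf2, beside a median of 52.7% over all windows. TATAAA was in 0 of the 5 and in 13.6% of all. A missing motif says only that these letters are not in these windows.

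LIN28 proteins block the maturation of let-7 microRNAs, so the members were also searched for let-7 seed matches. The 8 mature let-7 sequences taken from RefSeq (GRCm38.p6) were those with the seed GAGGUAG at bases 2 to 8. It is shown in capitals in 3 of them that differ outside it.
mmu-let-7a-5p: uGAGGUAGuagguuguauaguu
mmu-let-7e-5p: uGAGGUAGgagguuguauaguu
mmu-let-7g-5p: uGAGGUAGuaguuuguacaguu
The match to this seed, CTACCTC on the strand of the transcript, was in 0 of the 8 annotated 3′ UTRs, and in 8.43% of the 3′ UTRs of 19275 genes. Longer UTRs hold it more often. Among UTRs within 25% of the same length, the share was 17.4% for Ptch1 (3205 bases), 17.3% for Gli3 (3245 bases), 11.2% for Gli2 (1653 bases) and 9.64% for Gas1 (1382 bases). For the others it was 8.79% for Foxf1 (1265 bases), 7.51% for Shh (1040 bases), 5.54% for Foxf2 (758 bases) and 1.01% for Gli1 (165 bases).

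The other genes of the pathway came from a list of 67. Of these, 39 had a transcript in the table, 12 were listed at 0 in every library and 10 were tested. Of the tested genes 0 passed (limma adjusted p = 0.999 for each) and 0 had an unadjusted p under 0.05. By position, 6 were above WT in both DKO libraries, 1 was below in both and 3 lay on either side, while 32.1% of all tested transcripts were above in both. Their median log2 difference was 0.31, and it turned to −0.085 with a minimum of 5 RPKM (3 genes) and to −0.050 with rescaling to TPM (14 genes).

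Tulp3, which carries receptors into the cilium and restrains hedgehog signalling, was at 0.201 RPKM in WT, with 1.91 and 2.90 in the DKO libraries (log2 difference 1.49, SE 0.76). Mosmo, a gene that lowers Smoothened at the cell surface, had 0.640, 1.69 and 0.912 RPKM. Both reached the level for testing through the DKO libraries, Mosmo through DKO 1 alone, so that their place above WT was favoured by the filter. Among mesenchymal genes, Fgf10, a growth factor of the tip mesenchyme, had 1.71, 5.24 and 3.57 RPKM. Acta2, the actin of smooth muscle, was at 4.45, 7.28 and 11.0 RPKM. The 6 smooth muscle markers with a transcript, Acta2 included, summed to 26.3, 30.1 and 26.0 RPKM in WT, DKO 1 and DKO 2. Of these, 3 were above WT in both DKO libraries and 1, Tagln, was below in both (16.5, 14.8 and 8.77 RPKM). Tbx5, a T-box factor of lung mesenchyme, had 1.61, 2.51 and 3.61 RPKM, and Osr1 had 2.01, 2.12 and 2.59. For Acta2, Tbx5 and Osr1, as for Foxf2, DKO 2 was the highest library.

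The other tested growth and mesenchymal genes of the list lay on either side of WT or close to it. Mycn, a growth-promoting target of hedgehog signalling in several tissues, was at 4.14, 4.51 and 2.14 RPKM. The cyclin genes Ccnd1 (14.1, 12.5 and 14.1 RPKM) and Ccnd2 (33.2, 24.1 and 38.9 RPKM) were both lowest in DKO 1. Snai1, a transcription factor of mesenchymal transition, had 5.19, 5.53 and 3.63 RPKM. Foxm1, a cell cycle factor under the level for testing, was above WT in both DKO libraries, at 0.555, 0.836 and 0.971 RPKM.

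**Figure D4:**
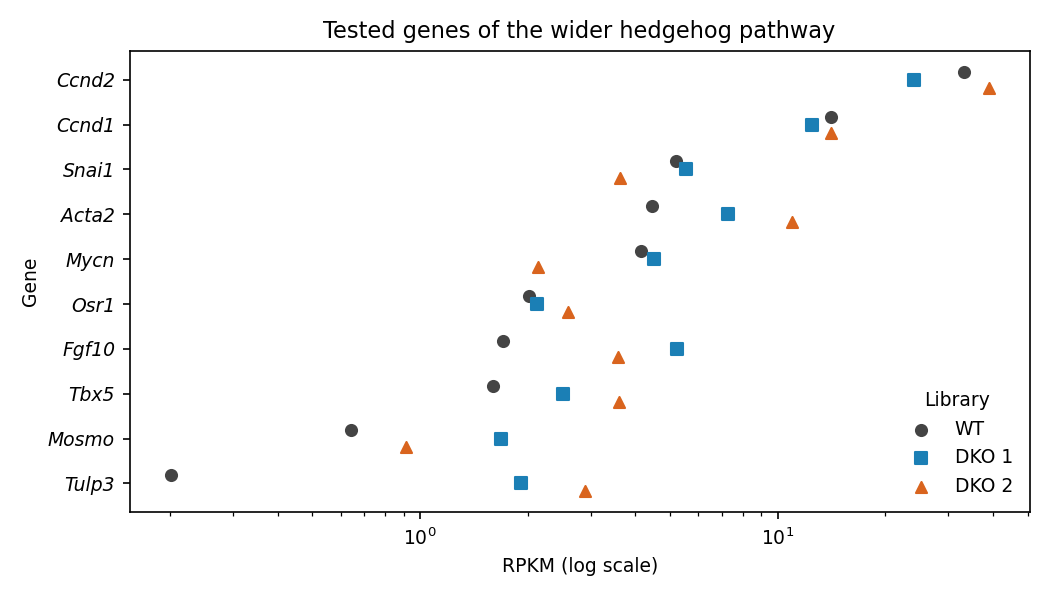
RPKM on a log scale of the 10 tested genes of the wider pathway in WT, DKO 1 and DKO 2, ordered by the WT level. WT is the lowest library for Tulp3, Mosmo, Tbx5, Fgf10, Osr1 and Acta2.

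The remaining ligand genes were low. Ihh was listed at 0 in WT and DKO 2, with 0.0400 RPKM in DKO 1. Dhh had 0.191 RPKM in WT, or about 39 reads, and was listed at 0 in both DKO libraries. Without the filter its limma adjusted p was 0.773 (unadjusted 0.00964). Sufu and Kif7, intracellular regulators of the GLI factors, were listed at 0 throughout, which can be a failed estimate as they have more than 1 transcript here. No transcript in the table mapped to Smo, Hhip, Cdon or Boc, so they were not analysed here. Bmp4 had 1.06, 1.16 and 0.557 RPKM, and Ift88, needed to build the cilium, had 1.16, 1.07 and 0.247, so that DKO 2 was the lowest library for both. Some other untested genes of the list went the other way. Wnt2b (0.178, 0.182 and 0.614 RPKM) and Bcl2 (0.373, 0.172 and 0.475 RPKM), like Foxm1, were highest in DKO 2.

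The genes with the pattern most like Shh and Gas1 were sought by the distance between their pairs of differences in DKO 1 and DKO 2 on the log2(RPKM + 1) scale, over 3 libraries. Closest to Shh were Hmmr at a distance of 0.0456 (4.69, 4.06 and 1.10 RPKM), Rapsn at 0.0657 (1.83, 1.35 and 0.0180 RPKM) and Pigu at 0.0692 (6.72, 5.97 and 1.84 RPKM). Hmmr and Pigu kept a larger share of their WT level in DKO 2 than Shh did, since the added 1 shrinks differences of low genes. Closest to Gas1 were Samd1 at 0.0645 (1.20, 3.49 and 2.82 RPKM), Gstt2 at 0.0774 (3.58, 9.07 and 6.76 RPKM) and Tpd52l1 at 0.104 (2.72, 7.33 and 5.12 RPKM).

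**Figure D5:**
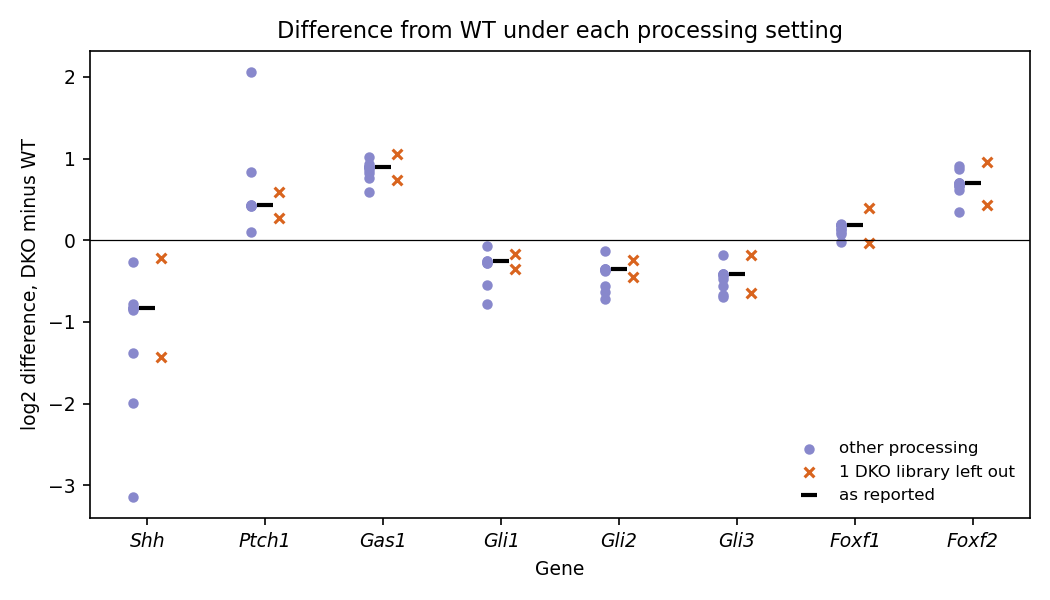
Mean log2 difference from WT of each gene as reported (bar), under other processing settings (dots) and with 1 DKO library left out (crosses). Shh ranges from −3.14 to −0.26 over the other settings and stays below 0, while Foxf1 lies on both sides of 0.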

How the data were processed

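The deposited values were RPKM, which the authors computed for each RefSeq transcript in each library. Per the submitters' processing notes, cutadapt, TopHat2, HTSeq and edgeR were used with mm10. Versions, order, annotation and the use of strand are not stated there. Per the labels' protocols, Trizol was used for total RNA and a SMARTer Ultra Low Input kit for the libraries.

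Transcripts were named through RefSeq (GRCm38.p6) and GENCODE M21, which named 16228 of 16383. The positions given for the members are those of the whole RefSeq gene, not of the single transcript. RPKM was multiplied by annotated length to estimate reads (for the intronless Gas1, the longest GENCODE model). Of values up to 100 reads, 38.0% to 44.0% lay within 0.05 of a whole read, where 10% would by chance, so read numbers are approximate. Poisson and exact binomial intervals at the 95% level cover counting error only.

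The test was limma 3.58.1 (R 4.3.3, trend, two-sided) on log2(RPKM + 1), with 1 WT and 2 DKO libraries, a minimum mean of 1 RPKM, a Benjamini-Hochberg adjusted p under 0.05 and 1 residual degree of freedom. It was also run on simulated data. Their spread was set and not taken from these libraries, so that run does not show how well the test works for the members. The members and lists were chosen with earlier results of these data known. Named were all members, every tested gene of the wider list and the 3 genes nearest to Shh and to Gas1. The untested genes named from the wider list (Ihh, Dhh, Sufu, Kif7, Bmp4, Ift88, Foxm1, Wnt2b and Bcl2), the markers singled out and the promoters shown were chosen after their values were seen. No gene set test was run.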

Additional observations from a re-analysis of the deposited data

How the results depend on the processing

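No member passed limma's threshold under any alternative run. Directions of Shh, Ptch1, Gas1, Gli1, Gli2, Gli3 and Foxf2 held in each run made for them, with limma adjusted p between 0.863 and 0.999. For these genes both DKO libraries lay on the same side of WT. Other pseudocounts, filters or variance settings, or leaving out 1 DKO library, therefore could not turn their direction. Only median scaling, quantile normalization, TPM and voom could, and voom was not run for Ptch1 and Gli1. Shh moved most, from −0.82 to between −3.14 (voom) and −0.26. Foxf1 turned to −0.024 with TPM. Without DKO 1 or DKO 2 its difference was −0.036 or 0.40. The number of transcripts called, 2, became 13 with a pseudocount of 0.1, 1 with 5, 0 without a filter, 10 with a minimum of 5 RPKM, 12 with median scaling, and 0 with quantile normalization, TPM and voom on approximate reads. The 97 transcripts past the 2-fold rule (66 higher, 31 lower) became 166 with a pseudocount of 0.1, 34 with 5, 50 with a minimum of 5 RPKM, 203 with TPM (97 higher, 106 lower), 275 at 1.5-fold, and 280 to 555 with 1 DKO library left out. Without a filter the rule took 67 higher and 49 lower. The median of the tested members, −0.08, became 0.54 with a minimum of 5 RPKM, where only Gas1 and Foxf1 were left, −0.33 with TPM, −0.29 with voom, and −0.11 to 0.092 with 1 DKO library left out. The median of the wider pathway, 0.31, became 0.54 with a pseudocount of 0.1, 0.11 with 5, 0.032 without a filter, −0.085 with a minimum of 5 RPKM, 0.28 with median scaling, 0.28 with quantile normalization, −0.050 with TPM, 0.46 with voom, and 0.24 to 0.26 with 1 DKO library left out. TPM moved the median of all transcripts by −0.21 and voom, with library sums as sizes, by −0.12. The filters and TPM change the genes tested (2776 transcripts with TPM, 14 of them wider genes). Otherwise the cause was not tested. No paired analysis was possible because WT was a single library. Leaving out a DKO library left no residual degrees of freedom, so those values have no test.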
